A study of Mus musculus with 137 samples.

Results

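Pck1, G6pc and Fbp1 encode enzymes that set the pace of gluconeogenesis, the making of new glucose from smaller molecules. They were followed here in the duodenum of mice that drank hexavalent chromium, Cr(VI). The genes were chosen by their symbols, 3 of the 21450 genes with a probe. The rule takes the probe with the highest total count of a gene. Each of the 3 had 1 probe, so the counts decided nothing.

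The samples came from wildtype female B6C3F1 mice, a hybrid of the C57BL/6 and C3H strains. Cr(VI) was supplied as sodium dichromate dihydrate in water drunk freely, at 0.1, 1.4, 5, 20, 60 or 180 ppm, and untreated mice drank tap water with 0 ppm. Exposure lasted 7 or 90 days, and the age of the animals was not given in the sources used here. Formalin-fixed, paraffin-embedded sections of duodenum were divided into a crypt and a villus compartment, and the RNA of each was counted with TempO-Seq, an assay that ligates pairs of short probes on their target and sequences the products. The data comprise 71 crypt and 66 villus libraries from 71 mice in 28 groups of 4 to 6 mice. In 66 mice both compartments were measured. A compartment is a scraped region and not a sorted cell type, so fewer cells of a type and less RNA per cell cannot be told apart.

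Gluconeogenesis runs largely in reverse of glycolysis, and separate enzymes bypass the steps that glycolysis cannot undo. Liver and kidney are its main sites, and the small intestine expresses the same enzymes in the absorptive enterocytes that line the villus. Pck1, the cytosolic phosphoenolpyruvate carboxykinase, brings oxaloacetate into the pathway. Fbp1, fructose-bisphosphatase, removes a phosphate from fructose bisphosphate midway. G6pc, the catalytic subunit of glucose-6-phosphatase, releases free glucose at the end. The genes lie on different chromosomes of the mouse genome (GENCODE M21, GRCm38). Pck1 spans chr2:173153048-173159273 on the plus strand, G6pc chr11:101367561-101377903 on the plus strand, and Fbp1 chr13:62864753-62888282 on the minus strand. The position of each probe within its transcript was not given in the sources used here.

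All 3 genes fell in the same direction, and their promoters are shown to let a reader compare the sequence next to their starts. Each run holds the 200 bases before the start of the RefSeq gene on GRCm38.p6, read along the gene's strand, at chr2:173152873-173153072 (plus), chr11:101367516-101367715 (plus) and chr13:62888283-62888482 (minus). The RefSeq starts of Pck1 and G6pc lie downstream of the GENCODE starts given above. The Pck1 run therefore ends inside the GENCODE span of its gene, and most of the G6pc run lies inside its own. Capitals mark the matches to 5 short motifs that were searched on both strands.
Pck1: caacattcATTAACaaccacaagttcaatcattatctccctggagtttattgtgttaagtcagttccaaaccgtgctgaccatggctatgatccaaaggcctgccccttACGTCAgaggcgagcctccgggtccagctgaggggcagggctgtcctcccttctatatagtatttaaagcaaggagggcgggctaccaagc
G6pc: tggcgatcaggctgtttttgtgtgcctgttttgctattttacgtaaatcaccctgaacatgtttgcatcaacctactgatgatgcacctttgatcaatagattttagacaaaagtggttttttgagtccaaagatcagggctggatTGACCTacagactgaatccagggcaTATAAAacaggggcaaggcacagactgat
Fbp1: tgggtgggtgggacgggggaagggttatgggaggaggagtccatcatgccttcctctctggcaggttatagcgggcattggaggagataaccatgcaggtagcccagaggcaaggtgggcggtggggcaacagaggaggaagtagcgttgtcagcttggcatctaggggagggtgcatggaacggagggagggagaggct
The core of the cyclic AMP response element, TGACGT, stood in the Pck1 promoter as ACGTCA, 91 to 86 bases before the start, and in 5.85% of 32851 promoters of this length. The HNF1 motif searched, GTTAAT, stood in the Pck1 promoter as ATTAAC, 192 to 187 bases before the start, and in 5.06% of all promoters. G6pc held the nuclear receptor core AGGTCA as TGACCT, 54 to 49 bases before its start (11.4% of all promoters), and the TATA box letters TATAAA, 29 to 24 bases before it (9.96%). The forkhead core TGTTTA, present in 9.46% of all promoters, matched none of the 3, and Fbp1 matched none of the 5 motifs. None of these matches was found in more than 1 of the 3 promoters. A match of letters is no measured binding site.

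Library totals ranged from 1463938 to 7199801 counts, with a median of 3592983. Values are given in CPM, counts scaled to the same library size, and the genes' levels are compared between libraries and not with each other. The compartments were checked with 12 crypt markers and 14 enterocyte markers. For every 1000 CPM of enterocyte markers, the crypt libraries held a median of 231 CPM of crypt markers and the villus libraries 14.4 CPM. Libraries from 2 untreated 7-day mice went against their labels. The library labelled crypt of mouse 49 held 23.5 CPM, below the other crypt libraries, and the library labelled villus of mouse 48 held 260 CPM, the highest of 66 villus libraries. Calls that rest on the 7-day untreated groups are therefore given with and without these mice. The villus library of mouse 447, at 60 ppm and 7 days, held 149 CPM, inside the range of the crypt libraries. The 60 ppm calls of Pck1 and Fbp1 in that group stood when single libraries were left out. The tests of neighbouring concentrations and of compartments at exposed concentrations were not refitted without it. Hepatocyte markers were scarce: the 6 that could be tested were at 0 in 49 to 116 of all libraries. Of 6 fat cell markers, Adipoq, Adrb3, Cfd and Retn were at 0 in 94 to 118 libraries. Cidec and Fabp4 were at 0 in 6 and 2 libraries, with medians of 10.2 and 23.5 CPM.

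Pck1 fell with Cr(VI) concentration in the crypt at 7 days. The untreated libraries of mice 46 to 50 held 267, 109, 221, 976 and 350 CPM. At 20 ppm the levels were 50.6, 25.1, 19.8, 20.0 and 22.4 CPM, and at 180 ppm 8.11, 0, 0, 2.46 and 3.9 CPM. The highest library at 20 ppm was thus below the lowest untreated one, and 2 of the 5 libraries at 180 ppm held no count of Pck1. The groups in between also lay in order of their means. At 0.1 ppm the 6 libraries ranged from 198 to 671 CPM with a median of 312, and at 1.4 ppm the levels were 186, 363, 585, 152 and 93.9 CPM. At 5 ppm they were 115, 91.2, 263, 53.9 and 106 CPM, and at 60 ppm 20.3, 29.6, 2.09, 4.13 and 21.7 CPM. Libraries at 5 ppm and below overlapped the untreated range.

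The differences in the 7-day crypt were tested with edgeR over 26365 probes, and a gene was called where the Benjamini-Hochberg adjusted p was under 0.1. Relative to untreated mice, Pck1 was lower by 13.7-fold at 20 ppm (log2 −3.78, SE 0.522, adjusted p = 6.61e-07) and by 24.4-fold at 60 ppm (log2 −4.61, SE 0.553, adjusted p = 1.32e-09). At 180 ppm the fitted log2 difference was −6.68 (SE 0.679, adjusted p = 1.5e-14), a value that depends on the prior count of 2 because of the libraries without counts. The 5 ppm group did not pass (log2 −1.60, adjusted p = 0.368). Of all probes, 0.0114% were called lower at 5 ppm and 0.212%, 1.38% and 3.08% at the 3 higher concentrations. Without mice 48 and 49 the log2 differences were −3.12, −3.94 and −6.01 at 20, 60 and 180 ppm, and each passed (adjusted p = 0.000444 at 20 ppm). Pck1 had the smallest p of all probes at 20 and at 60 ppm in this compartment.

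**Figure D1:**
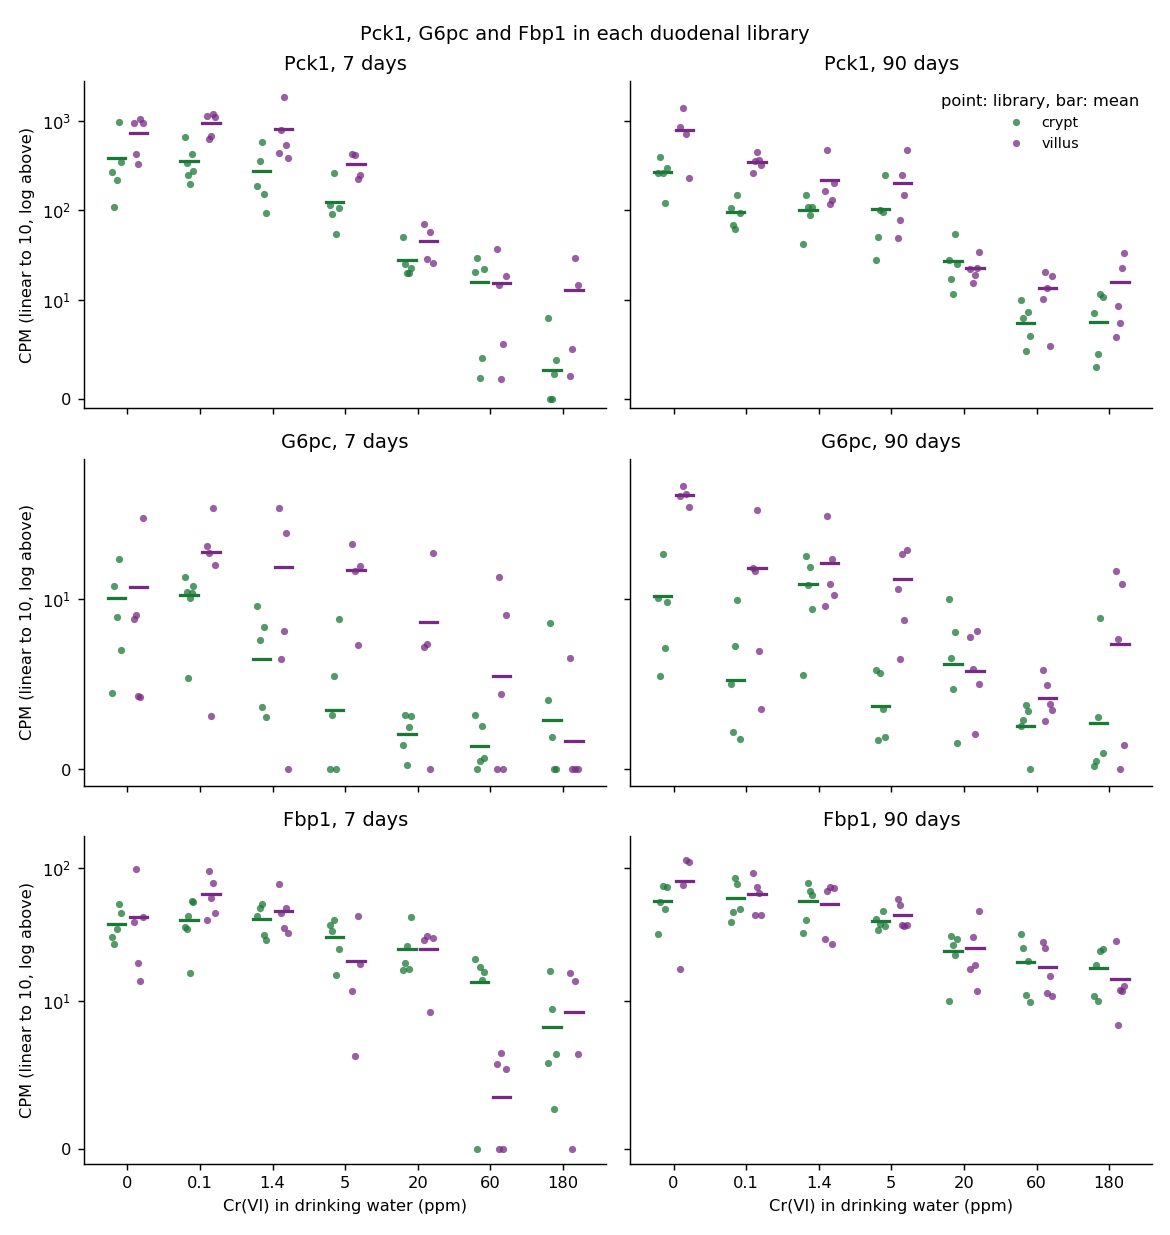
Level of Pck1, G6pc and Fbp1 (rows) in CPM in each library, by Cr(VI) concentration in ppm, at 7 days (left) and 90 days (right); the axis is linear up to 10 CPM and logarithmic above. Points are libraries of the crypt (green) and villus (purple) and bars are group means. The Pck1 means fell from 385 CPM in untreated crypts to 2.89 CPM at 180 ppm after 7 days.

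After 90 days the crypt showed lower Pck1 from 20 ppm upward as well. The untreated libraries held 265, 393, 264, 120 and 296 CPM, a narrower spread than at 7 days. At 20 ppm the levels were 27.6, 17.1, 11.5, 54.9 and 25.2 CPM. At 60 ppm they were 9.90, 8.13, 4.84, 8.78 and 6.28 CPM, and at 180 ppm 8.68, 3.21, 4.49, 11.4 and 10.6 CPM. None of these 15 libraries reached the lowest untreated level. The fold at 20 ppm was 9.65 (log2 −3.27, SE 0.514, adjusted p = 4.00e-05), at 60 ppm 33.1 (log2 −5.05, SE 0.589, adjusted p = 7.74e-11) and at 180 ppm 32.5 (log2 −5.02, SE 0.583, adjusted p = 1.83e-10). Of all probes 0.163%, 4.73% and 2.69% were called lower at these concentrations. The groups of 60 and 180 ppm did not differ by more than their spread (log2 of 180 over 60 ppm 0.03, SE 0.683, adjusted p = 1).

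Pck1 was not called at the lower concentrations in the 90-day crypt. The means were 95.6 ± 34.8 CPM at 0.1 ppm, 99.8 ± 38.6 CPM at 1.4 ppm and 104 ± 86 CPM at 5 ppm (SD, n = 5 each), against 268 ± 98.2 CPM in untreated mice. The corresponding log2 differences were −1.48, −1.42 and −1.36, and their adjusted p values were 1, 0.951 and 0.512. In a separate edgeR fit of these crypts the 5 ppm difference passed (log2 −1.39, adjusted p = 0.0347). No probe at all was called lower at these 3 concentrations after 90 days in the crypt, so the background there was 0%.

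Pck1 fell in the villus as well. Untreated villi at 7 days held 959, 426, 334, 1050 and 956 CPM. At 20 ppm the 4 libraries held 69.7, 28.5, 57.8 and 25.7 CPM, and at 180 ppm the 4 libraries held 2.29, 4.98, 29.4 and 14.7 CPM. Every library at 20 ppm and above was below every untreated one. The differences were 16.5-fold at 20 ppm (log2 −4.05, SE 0.573, adjusted p = 9.11e-07), 44.4-fold at 60 ppm (log2 −5.47, SE 0.583, adjusted p = 3.51e-12) and 57.6-fold at 180 ppm (log2 −5.85, SE 0.656, adjusted p = 1.97e-11). Probes called lower made up 1.5%, 3.63% and 3.46% of all probes. The log2 differences were −4.12, −5.54 and −5.89 without mice 48 and 49, and each passed. At 60 ppm the libraries ranged from 2.02 to 37.0 CPM. At 0.1 and 1.4 ppm the means, 962 ± 283 and 811 ± 621 CPM (SD, n = 5), were not below the untreated 745 ± 337 CPM.

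In the 90-day villus Pck1 was called from 5 ppm upward. The log2 differences at 0.1 and 1.4 ppm were −1.19 and −1.88, and neither passed in edgeR (adjusted p = 0.481 and 0.14). The 1.4 ppm difference passed in DESeq2 (log2 −2.13, adjusted p = 0.0411) and under other settings given at the end. The 4 untreated libraries held 865, 1401, 725 and 229 CPM. At 5 ppm the levels were 49.4, 78.3, 248.8, 150 and 476 CPM, so 2 of the 5 exposed libraries lay inside the untreated range. The difference was 4.03-fold (log2 −2.01, SE 0.485, adjusted p = 0.00365), and 3.32% of all probes were called lower. The median log2 difference of all probes was 0.39 in that comparison. At 20 ppm the levels were 22.0, 15.5, 18.7, 22.5 and 33.9 CPM, all below the untreated ones, a difference of 34.6-fold (log2 −5.11, SE 0.566, adjusted p = 9.81e-12). The fold was 57.3 at 60 ppm and 49.9 at 180 ppm (log2 −5.84 and −5.64, adjusted p = 2.47e-13 and 4.55e-13). Here 4.49%, 5.25% and 4.95% of all probes were called lower at 20, 60 and 180 ppm.

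Pck1 fell between 5 and 20 ppm in the villus at both times. At 90 days it was already lower at 5 ppm than in untreated mice (log2 −2.01), so that fall was not confined to this step. Steps below 5 ppm are not given here. From 5 to 20 ppm the mean villus level went from 333 ± 109 to 45.4 ± 21.7 CPM at 7 days (SD, n = 4) and from 201 ± 172 to 22.5 ± 6.95 CPM at 90 days (SD, n = 5). Tested between the neighbouring groups, a comparison added after the data had been seen, the log2 step was −2.88 at 7 days (SE 0.565, adjusted p = 0.006) and −3.10 at 90 days (SE 0.529, adjusted p = 0.000138). Only 0.11% and 0.262% of all probes were called lower in these steps. In the crypt the same step measured −2.18 at 7 days (adjusted p = 0.14) and −1.91 at 90 days (adjusted p = 0.76), and neither passed. Of the 8 steps of Pck1 from 20 to 60 and from 60 to 180 ppm, 0 passed in edgeR and 3 had an unadjusted p under 0.05. After 7 days in the crypt the last of these was −2.07 (SE 0.77, adjusted p = 0.576).

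**Figure D2:**
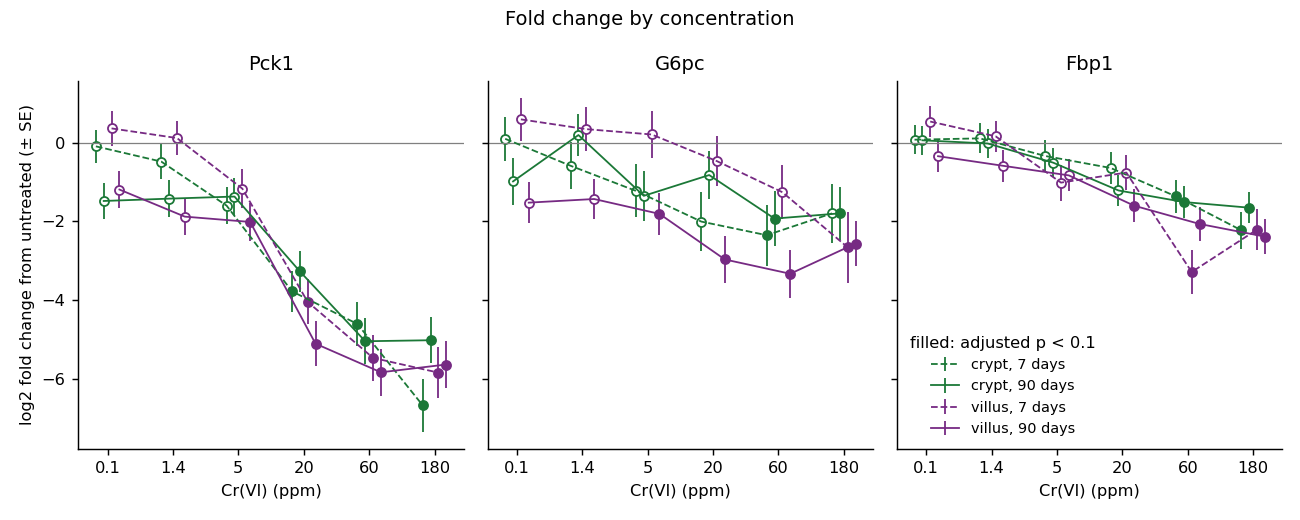
Log2 difference from untreated mice (vertical, with SE bars) against Cr(VI) concentration in ppm for Pck1, G6pc and Fbp1 in crypt (green) and villus (purple) at 7 and 90 days; filled points have an edgeR adjusted p under 0.1. Filled points appear mainly from 20 ppm for Pck1, and from 60 ppm for Fbp1 in the crypt.

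Fbp1 was first called at 60 ppm in 3 of the 4 series, and at 20 ppm in the 90-day villus. In the 7-day crypt the untreated libraries held 30.3, 26.9, 34.8, 53.2 and 45.7 CPM. At 180 ppm they held 5.83, 16.8, 9.47, 2.71 and 6.42 CPM, and every one was below the untreated range. The difference was 4.67-fold (log2 −2.22, SE 0.473, adjusted p = 0.000368), and without mice 48 and 49 its log2 was −2.07 (adjusted p = 0.00554). At 60 ppm the levels were 20.8, 0, 18.2, 14.4 and 16.6 CPM, again all below (log2 −1.36, SE 0.417, adjusted p = 0.0635). Without mice 48 and 49 the 60 ppm difference was −1.22 and no longer passed (adjusted p = 0.304). The groups up to 20 ppm had means between 24.4 and 41.3 CPM, beside 38.2 ± 11 CPM in untreated crypts, and none was called.

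The 90-day crypt gave Fbp1 levels of 32.0, 55.4, 73.0, 48.9 and 72.4 CPM without Cr(VI). At 60 ppm the levels were 31.7, 24.9, 11.2, 20.1 and 9.90 CPM, and at 180 ppm 10.9, 18.6, 10.1, 23.9 and 24.7 CPM. The highest 60 ppm library lay just under the lowest untreated one, and the 180 ppm libraries were clear of it. The log2 differences were −1.5 (SE 0.397, adjusted p = 0.00374) and −1.65 (SE 0.398, adjusted p = 0.00325). At 20 ppm all 5 libraries, from 9.996 to 31.0 CPM, were also under the untreated range, yet the difference did not pass (log2 −1.21, SE 0.391, adjusted p = 0.164). It passed in DESeq2 (adjusted p = 0.0665), with its size factors in edgeR (0.0891) and in a separate edgeR fit of these crypts (0.00724).

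In the villus Fbp1 varied more among untreated mice. At 7 days these held 39.1, 98.2, 19.4, 14.04 and 42.5 CPM. At 60 ppm the libraries held 5.75, 0, 6.46, 0 and 5.44 CPM, below every untreated library (log2 −3.29, SE 0.561, adjusted p = 5.24e-06). At 180 ppm the 4 libraries held 16.4, 0, 14.1 and 6.43 CPM, and the groups overlapped (log2 −2.20, SE 0.512, adjusted p = 0.00155). With mice 48 and 49 left out, the log2 differences at 60 and 180 ppm were −3.76 (adjusted p = 4.83e-07) and −2.66 (adjusted p = 0.000145). The step from 20 to 60 ppm was −2.53 (SE 0.608, adjusted p = 0.0247), with 0.106% of all probes called lower. It was the only neighbouring pair of concentrations at which Fbp1 passed. The upward step from 60 to 180 ppm, 1.08, did not pass (adjusted p = 0.518).

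Fbp1 was called at 20, 60 and 180 ppm in the 90-day villus. The untreated libraries held 17.4, 73.9, 115 and 111 CPM, and mouse 3, the lowest, lay within the exposed range. The levels were 17.4, 30.2, 18.7, 11.97 and 47.8 CPM at 20 ppm and 28.3, 8.38, 12.1, 11.9 and 13.0 CPM at 180 ppm. The groups overlapped through mouse 3 at each of these concentrations. The log2 differences were −1.60 at 20 ppm (SE 0.417, adjusted p = 0.00333), −2.06 at 60 ppm (SE 0.427, adjusted p = 0.000109) and −2.39 at 180 ppm (SE 0.440, adjusted p = 1.34e-05).

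G6pc was scarce, and its clearest fall was in the villus after 90 days. The 4 untreated libraries there held 47.4, 55.4, 49.0 and 40.2 CPM, from 95 to 128 counts each. Already at 0.1 ppm the levels were 15.9, 15.2, 38.3, 6.94 and 3.53 CPM, below every untreated library, but the difference did not pass (log2 −1.52, SE 0.529, adjusted p = 0.377). At 1.4 ppm the libraries ranged from 9.58 to 35.0 CPM and again lay below the untreated range without passing (log2 −1.43, adjusted p = 0.332). Of all probes 0.341%, 0.383% and 1.72% had no exposed library reaching the untreated ones at 0.1, 1.4 and 5 ppm in this series. At 5 ppm they held 11.7, 6.50, 19.9, 8.75 and 21.0 CPM and the difference passed (log2 −1.81, SE 0.543, adjusted p = 0.0211). It did not pass in DESeq2 (log2 −1.97, adjusted p = 0.105) or with a dispersion for each probe in edgeR (adjusted p = 0.163).

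The same series continued downward at 20 and 60 ppm. G6pc stood at 7.77, 5.88, 2.07, 8.14 and 5.03 CPM at 20 ppm (log2 −2.97, SE 0.593, adjusted p = 4.14e-05). At 60 ppm it stood at 5.84, 2.85, 4.97, 3.86 and 3.45 CPM (log2 −3.33, SE 0.61, adjusted p = 4.63e-06). At 180 ppm the libraries spread from 0 to 15.3 CPM (log2 −2.56, SE 0.562, adjusted p = 0.000227). Every exposed 90-day villus library, at all concentrations from 0.1 to 180 ppm, was below the lowest untreated one. These comparisons share the same untreated libraries, whose mean was 48.0 CPM. Untreated means were 10.2 CPM in the 7-day crypt, 10.5 CPM in the 90-day crypt and 12.1 CPM in the 7-day villus. Why this untreated group was higher was not tested. The untreated villus libraries of this time were the shallowest group, with totals of 1667014 to 2678299 counts. The 5, 20, 60 and 180 ppm calls of G6pc in this series stood after all libraries were thinned to the same total and with the log10 total count as a covariate.

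In the other 3 series G6pc reached the threshold at 1 or 2 concentrations. In the 7-day crypt untreated libraries held 4.49, 12.1, 8.93, 18.3 and 7.02 CPM, and those at 60 ppm 3.16, 0, 0.466, 2.56 and 0.672 CPM, with no overlap (log2 −2.35, SE 0.781, adjusted p = 0.0458). Without mice 48 and 49 this difference was −2.07 and did not pass (adjusted p = 0.301). In the 90-day crypt it was called at 60 ppm (log2 −1.93, adjusted p = 0.0271) and, with overlapping groups, at 180 ppm (log2 −1.79, adjusted p = 0.067). Both were lost after thinning (log2 −1.56 and −1.35, adjusted p = 0.124 and 0.249) and with a dispersion for each probe (adjusted p = 0.189 and 0.303). The untreated 90-day crypts ranged from 5.46 to 19.8 CPM, those at 60 ppm from 0 to 3.79 CPM and those at 180 ppm from 0.207 to 8.89 CPM. In the 7-day villus the 180 ppm libraries held 6.55, 0, 0 and 0 CPM, and untreated ones 8.86, 9.05, 4.32, 4.25 and 33.8 CPM (log2 −2.66, SE 0.901, adjusted p = 0.0314). The difference was −3.12 without mice 48 and 49 (adjusted p = 0.00989). The value of 33.8 CPM belonged to mouse 50, and without that library the difference was −1.73 and did not pass (adjusted p = 0.306). The call was lost in 4 of 9 fits that each left out a single library. It was also lost in a separate edgeR fit of these villi (adjusted p = 0.161) and with a dispersion for each probe (adjusted p = 0.131).

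Over the 72 comparisons of an exposed with an untreated group, 30 were called lower and 0 higher in edgeR, and DESeq2 also called 30 lower and 0 higher, 28 of them shared with edgeR. At an unadjusted p under 0.05, 45 were lower and 0 higher. For Pck1 the count was 13 of 24, for Fbp1 9 of 24 and for G6pc 8 of 24. By concentration, edgeR called 0 of 12 at either of the lowest 2 concentrations, where 3 of 12 each had an unadjusted p under 0.05 and DESeq2 called 0 and 1. It called 2 of 12 at 5 ppm, 6 of 12 at 20 ppm and 11 of 12 at each higher one. The shares of all probes called lower at 0.1 ppm were 0.0114% and 0% in the crypt and 0% and 0.019% in the villus at 7 and 90 days. At 1.4 ppm they were 0.00379% and 0% in the crypt and 1% and 0.00759% in the villus, and at 5 ppm in the 7-day villus 0.25%. All exposed libraries lay below all untreated ones in 27 of the 72, and the fitted difference was below 0 in 60. The share of all probes with every exposed library below every untreated one was 0.66% and 1.25% in the crypt and 1.15% and 2.42% in the villus at 20 ppm, 7 days first. At 60 ppm these shares were 1.08%, 3.55%, 1.19% and 3.42%, and at 180 ppm 2.1%, 2.74%, 1.9% and 2.77%, in the same order. The comparisons of a series share their untreated libraries, and the 3 genes were picked with earlier results of these data known, so the counts describe these genes and are not independent evidence of a direction. Without mice 48 and 49, 28 of the 30 calls stood.

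The dose trend, a straight line through the 7 concentrations in their order, was lower for all 3 genes in each of the 4 series. Probes with a lower trend made up 5.78% of all probes in the crypt at 7 days, 7.86% in the crypt at 90 days, 8.19% in the villus at 7 days and 9.27% in the villus at 90 days. Per step of concentration Pck1 fell 2.23-fold in the crypt at 7 days (log2 −1.16, SE 0.0854) and 1.81-fold at 90 days (log2 −0.86, SE 0.0775). In the villus it fell 2.29-fold at 7 days (log2 −1.19, SE 0.089) and 2.07-fold at 90 days (log2 −1.05, SE 0.0788). The edgeR adjusted p was at most 2.71e-17 in these 4 trends. Ranked by slope, Pck1 had the steepest fall of all 26365 probes in both crypt series and in the 7-day villus, and it ranked 3 in the 90-day villus.

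The slopes of Fbp1 and G6pc were shallower. Fbp1 changed by −0.37, −0.33, −0.54 and −0.42 on the log2 scale per step in the 7-day crypt, 90-day crypt, 7-day villus and 90-day villus, with edgeR adjusted p values of at most 4.52e-07. G6pc changed by −0.42, −0.30, −0.45 and −0.46 per step in the same order, and its largest adjusted p was 0.0059 in the 90-day crypt. Without mice 48 and 49 the 7-day slopes were −1.08 and −1.20 for Pck1, −0.38 and −0.49 for G6pc and −0.35 and −0.59 for Fbp1 in crypt and villus, and every one passed.

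The slopes were compared between compartments and between times, 12 differences in all. In the main edgeR fit, which does not pair the compartments of a mouse, 0 passed. DESeq2 called 1, the crypt slope of Pck1 at 90 against 7 days (0.28, adjusted p = 0.0979). The share of all probes called either way in these tests was 0.205% for villus against crypt at 7 days and 2.14% at 90 days. It was 0.975% for 90 against 7 days in the crypt and 9.17% in the villus. The closest was Pck1 in the crypt, where the slope at 90 days was shallower by 0.30 log2 per step than at 7 days (SE 0.118, unadjusted p = 0.00988, adjusted p = 0.289). It was the only one of the 12 with an unadjusted p under 0.05. A slope that differed by less than the spread between libraries is not shown to be equal. For Pck1 the villus slope minus the crypt slope was −0.04 at 7 days (SE 0.123) and −0.19 at 90 days (SE 0.106). With the mouse as a block the 90-day difference passed (−0.19, adjusted p = 0.0851).

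Pck1 was higher in villus than in crypt of untreated mice. At 90 days its crypt level was 268 ± 98.2 CPM (SD, n = 5) and its villus level 805 ± 482 CPM (SD, n = 4), a difference of 3.00-fold (log2 crypt over villus −1.59, SE 0.476, edgeR adjusted p = 0.0219). Of all probes 3.89% were called lower in the crypt. At 7 days the log2 difference was −0.96 (SE 0.449) and did not pass (adjusted p = 0.382), and 0.421% of all probes were called lower. In all 9 untreated mice with both compartments the villus library held more Pck1 than the crypt library. With the mouse as a block, which compares the compartments within each animal, the 7-day log2 difference was −1.18 and passed (adjusted p = 2.16e-05). Without mice 48 and 49 it was −1.61 (adjusted p = 0.14).

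G6pc also differed between the compartments at 90 days, and Fbp1 did not pass at either time. Untreated crypts held 10.5 ± 5.58 CPM of G6pc at 90 days, and villi 48.0 ± 6.26 CPM, a difference of 4.28-fold (log2 −2.10, SE 0.527, adjusted p = 0.00322). The lowest villus library, at 40.2 CPM, exceeded the highest crypt library, at 19.8 CPM. At 7 days the crypt and villus means were 10.2 ± 5.32 and 12.1 ± 12.4 CPM (SD, n = 5), and the difference did not pass (log2 −0.35, adjusted p = 0.83). For Fbp1 the log2 difference was −0.17 at 7 days (95% interval −0.94 to 0.60) and −0.51 at 90 days (95% interval −1.28 to 0.27), and neither passed. The 7-day differences without mice 48 and 49 were −1.05 for G6pc (adjusted p = 0.517) and −0.72 for Fbp1 (adjusted p = 0.535).

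**Figure D3:**
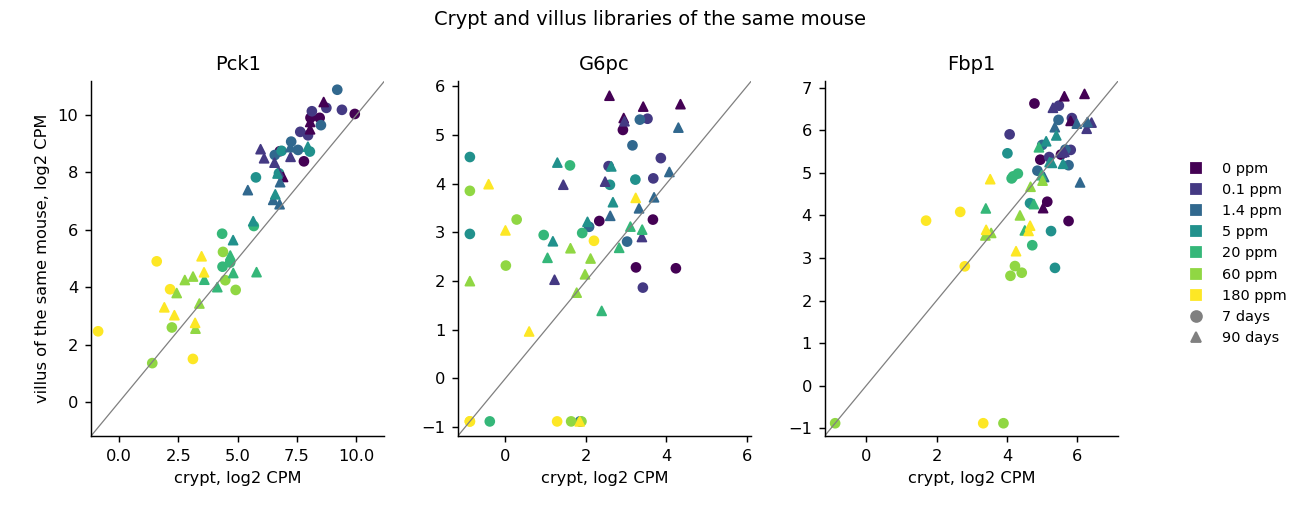
Level of each gene in the crypt (horizontal) and villus (vertical) of the same mouse, in log2 CPM with a prior count, so that libraries without counts lie near −0.9. Colour gives the concentration in ppm, circles are 7 days, triangles 90 days, and the line marks equal levels. Pck1 lies above the line in 57 of 66 mice and Fbp1 in 32 of 66.

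Within single mice the order of the compartments held for Pck1 up to 5 ppm. The villus library was above the crypt library in each of the 38 mice at 0 to 5 ppm that had both, and in 19 of the 28 mice at 20 ppm and above. For G6pc the villus was higher in 48 of 66 mice, the crypt in 16, and 2 held no count in either. For Fbp1 the villus was higher in 32 and the crypt in 33. Tested at each exposed concentration, a comparison added after the data had been seen, Pck1 was lower in the crypt at 0.1, 1.4 and 5 ppm at 7 days (log2 −1.41, −1.56 and −1.39) and at 0.1 ppm at 90 days (log2 −1.88). Of all probes 2.92%, 3.31%, 3.28% and 5.79% were called lower in the crypt in these 4 comparisons. At 20 ppm and above 0 of 6 crypt-to-villus differences of Pck1 passed in edgeR, and 1 had an unadjusted p under 0.05. The tests at exposed concentrations did not pair the compartments of a mouse, so this count does not show equal levels. A fit with the mouse as a block was not run for them. G6pc was lower in the crypt at 5 and 20 ppm at 7 days (log2 −1.79 and −1.89) and at 0.1 and 5 ppm at 90 days (log2 −1.56 and −1.64). At 20 ppm and 7 days 4.26% of all probes were called lower in the crypt, and at 5 ppm and 90 days 4.53%. The single difference of Fbp1 that passed was in the opposite direction, higher in the crypt at 60 ppm and 7 days (log2 1.76, SE 0.61, adjusted p = 0.0371), beside 6.91% of all probes.

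The other genes of gluconeogenesis passed less evenly across the series. Of 9 genes of the pathway that could be tested, these 3 included, 5 had a lower dose trend in the 7-day crypt, 4 in the 90-day crypt, 6 in the 7-day villus and 4 in the 90-day villus. Over all 18998 genes the shares with a lower trend were 6.05%, 7.75%, 8.52% and 8.62%. Pck1, G6pc and Fbp1 make up 3 of the lower genes in each series, and they were picked with earlier results of these data known. Slc37a4, the transporter that carries glucose phosphate to the G6pc enzyme, had slopes of −0.20, −0.15 and −0.23 in the first 3 series, which passed, and −0.08 in the 90-day villus, which did not. Its crypt mean at 7 days was 48.6 ± 8.71 CPM without Cr(VI) and 19.0 ± 8.95 CPM at 180 ppm (SD, n = 5). Pcx, pyruvate carboxylase, makes the oxaloacetate that Pck1 uses, and it fell in the villus at both times (−0.16 and −0.11 log2 per step) and passed in neither crypt series.

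Pck2, the mitochondrial counterpart of Pck1, did not pass in any series. Its slopes were 0.02, 0.01, 0.03 and 0.03, and its villus mean at 90 days was 73.9 ± 53 CPM without Cr(VI) (SD, n = 4) and 87.2 ± 28.3 CPM at 180 ppm (SD, n = 5). Fbp2, the muscle-type relative of Fbp1, fell by 0.12 and 0.09 log2 per step in the 7-day crypt and villus and rose by 0.10 in the 90-day villus. Near-identical relatives can share probe signal, and which transcripts each probe matches was not given in the sources used here. G6pc2 passed in no series and was near 0, with a mean of 0 CPM in untreated villi at both times. G6pc3 was called higher in the 90-day villus, where its 4 untreated libraries were at 0 and its 180 ppm libraries averaged 3.69 ± 1.78 CPM (SD, n = 5).

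**Figure D4:**
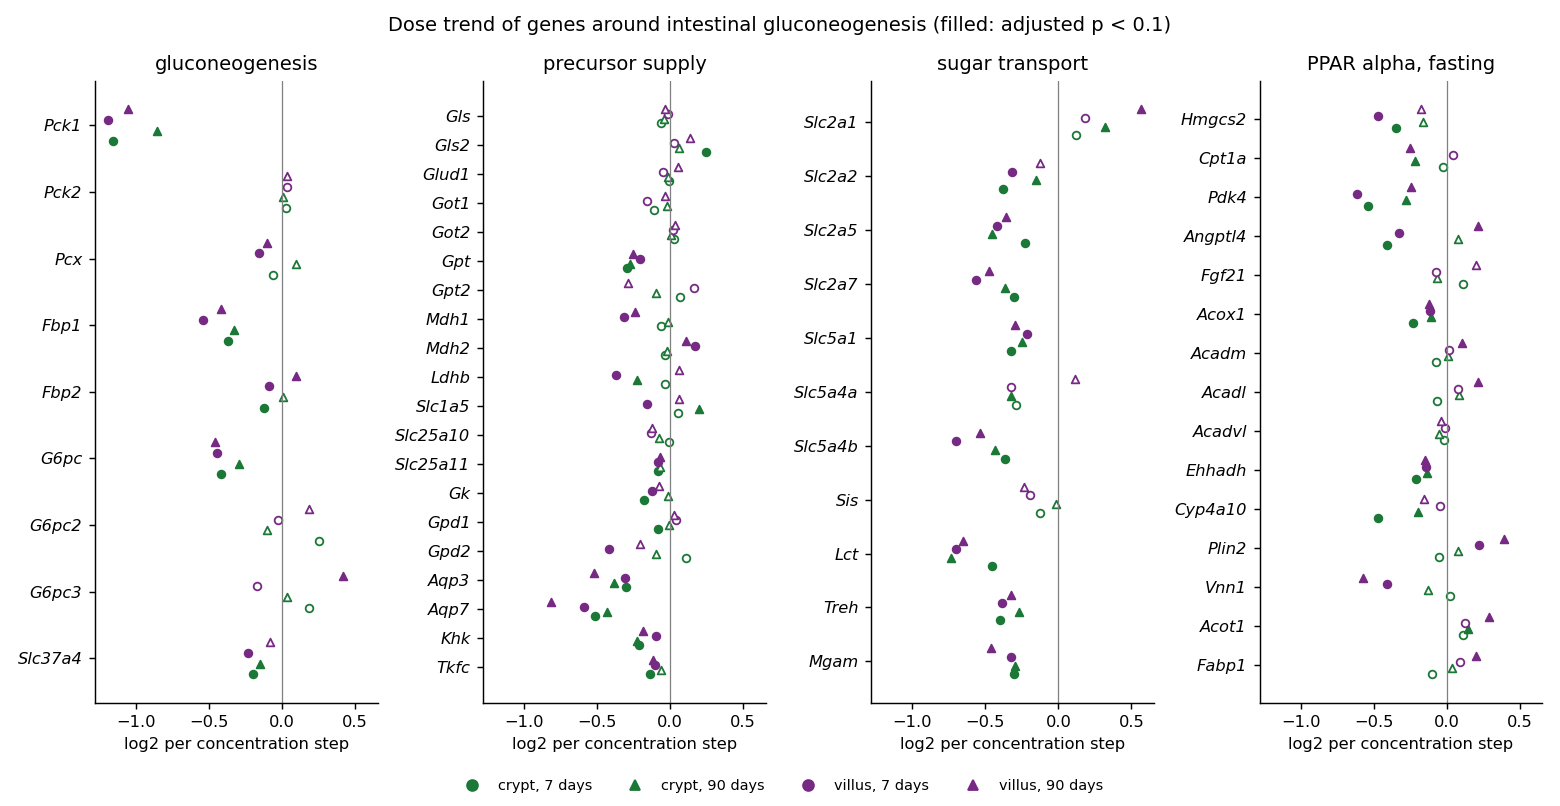
Dose trend in log2 per step of concentration (horizontal) for genes of gluconeogenesis, precursor supply, sugar digestion and transport, and PPAR alpha and fasting, in crypt and villus at 7 days (circles) and 90 days (triangles); filled symbols have an edgeR adjusted p under 0.1. Pck1 lies farthest to the left, at −0.86 to −1.19, and Pck2 lies near 0.

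Genes that supply precursors to the pathway fell more often than they rose. Of 20 tested, 8, 5, 11 and 7 had a lower trend in the 7-day crypt, 90-day crypt, 7-day villus and 90-day villus, and 1 rose in each. Among all probes 5.78%, 7.86%, 8.19% and 9.27% had a lower trend. Aqp7, a channel for glycerol, fell by 0.52, 0.43, 0.59 and 0.82 log2 per step. Its villus mean at 90 days was 36.7 ± 17.3 CPM without Cr(VI) (SD, n = 4) and 1.38 ± 3.1 CPM at 180 ppm (SD, n = 5). Aqp3, another glycerol channel, fell by 0.31, 0.39, 0.31 and 0.52 log2 per step. Gpt, which turns alanine into pyruvate, and Khk, which starts the use of fructose, fell in all 4 series by 0.10 to 0.29 log2 per step.

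Most genes of sugar digestion and transport at the brush border fell. Of 11 tested, 8, 9, 8 and 7 had a lower trend in the 4 series, in the same order, beside 5.78%, 7.86%, 8.19% and 9.27% of all probes. Mgam, an enzyme that splits starch products, fell by 0.30, 0.30, 0.33 and 0.46 log2 per step, and its 90-day villus mean was 5659 ± 1240 CPM without Cr(VI) and 1026 ± 397 CPM at 180 ppm. Slc5a1, the sodium-coupled glucose transporter SGLT1, fell by 0.32, 0.25, 0.22 and 0.30, and Treh, which splits trehalose, by 0.40, 0.27, 0.39 and 0.32. Slc2a1, the facilitated glucose transporter GLUT1, rose in the crypt and villus at 90 days (0.32 and 0.57) and passed in neither 7-day series.

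Glycolysis genes were mixed. Of 24 tested, 4, 3, 3 and 5 had a lower trend and 2, 7, 7 and 9 a higher one in the 4 series, beside 4.18%, 11.99%, 6.42% and 18.8% of all genes with a higher trend. Among all probes 5.78%, 7.86%, 8.19% and 9.27% had a lower trend. Aldoa, an aldolase that also works in gluconeogenesis, rose in all 4 by 0.10 to 0.26 log2 per step. Hk2, a hexokinase, and Pfkp, a phosphofructokinase, rose in 3 of the 4 and did not pass in the 7-day crypt (0.05 and 0.04). Pfkfb4, which sets the level of an activator of phosphofructokinase, fell in all 4 by 0.18 to 0.28 log2 per step.

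Of 24 regulators tested, 6, 4, 5 and 7 had a lower trend and 0, 4, 2 and 3 a higher one. Over all genes 6.05%, 7.75%, 8.52% and 8.62% had a lower trend and 4.18%, 11.99%, 6.42% and 18.8% a higher one. Ppargc1a, a coactivator that induces gluconeogenic genes in liver, fell by 0.33, 0.27, 0.26 and 0.33 log2 per step, and Insr, the insulin receptor, by 0.18, 0.16, 0.24 and 0.27. Irs2, an adaptor of insulin signalling, fell in 3 series (−0.31, −0.34 and −0.19 in the 7-day crypt, 7-day villus and 90-day villus) and did not pass in the 90-day crypt (−0.10). Cebpb, a transcription factor, rose in 3 of the 4 and did not pass in the 7-day crypt. Of 15 genes of PPAR alpha and fasting, 6, 5, 6 and 5 fell and 0, 1, 1 and 6 rose. Pdk4, a kinase that keeps pyruvate from being oxidised, fell by 0.54, 0.28, 0.62 and 0.24 log2 per step. Angptl4, a fasting-induced lipase inhibitor, fell in both 7-day series (−0.41 and −0.33) and rose in the 90-day villus (0.22). Plin2, which coats lipid droplets, and Acadl, an enzyme of fat oxidation, rose in the 90-day villus by 0.39 and 0.21 log2 per step.

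Enterocyte markers also moved with Cr(VI), and their part in these results was not tested. Of 14, 11, 8, 9 and 9 had a lower dose trend in the 4 series, and 1, Fabp2, a fatty acid binding protein of enterocytes, rose in the 90-day villus. Among all probes 5.78%, 7.86%, 8.19% and 9.27% had a lower trend. At 180 ppm their summed level in the 7-day crypt ranged from 9259 to 18166 CPM, below the untreated 27567 to 73367 CPM. In the 90-day villus it ranged from 30126 to 94145 CPM, overlapping the untreated 61358 to 86026 CPM. At 20 ppm the sum was not lower than in untreated mice in any series: medians were 37279 and 32457 CPM in the 7-day crypt, 51593 and 40478 CPM in the 90-day crypt, 84672 and 75453 CPM in the 7-day villus, and 160051 and 73591 CPM in the 90-day villus, exposed first. The sum weighs Fabp2 most: its median over all libraries was 26651 CPM, and Vil1, the next highest, had 5351 CPM. How this sum bears on the Pck1 levels was not tested. Of the 14 markers, Nt5e was at 0 in 57 of all libraries and Ada in 19, and the other 12 were detected in all.

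Markers of other cells were counted in the same way. Beside them, 5.78%, 7.86%, 8.19% and 9.27% of all probes had a lower trend in the 4 series. The shares of all genes with a higher trend are those given with the regulators. Of 12 crypt markers, 0, 0, 2 and 1 had a lower trend and 1, 2, 0 and 3 a higher one. In edgeR, 0 of the 40 trends of pancreas markers (10 genes in 4 series) and 0 of the 24 trends of fat cell markers (6 genes) passed, and 2 and 1 had an unadjusted p under 0.05. Of 6 hepatocyte markers, 1 rose in the 90-day crypt and 1 in the 7-day villus. Of 8 markers of muscle and stroma, 5 fell in the 90-day crypt, 1 rose in the 7-day villus, and in the 90-day villus 4 fell and 3 rose. Of 7 immune markers, 3, 2, 2 and 2 fell in the 4 series and 2 rose in the 90-day villus. The median summed level of the immune markers in the 7-day crypt was 1481 CPM without Cr(VI) and 538 CPM at 180 ppm. The part of these markers in the results was not tested.

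Over all libraries of both compartments, the genes whose log2 CPM ran most like Pck1 were Ace (Pearson's r = 0.852), Mgam (0.839), Selenop (0.836), Sectm1b (0.835) and Leap2 (0.826), of 7600 genes with a mean of at least 10 CPM. For G6pc they were Cd36 (0.681), Apob (0.653), Cdhr2 (0.652), Plekhg6 (0.649) and Fmo5 (0.645), and for Fbp1 Cyp2b10 (0.739), Sco2 (0.735), Msra (0.729), Agmo (0.712) and Vdr (0.699). Apob is one of the 14 enterocyte markers. The libraries share compartment, concentration and often the mouse, and these coefficients are descriptions. Among the 3 genes themselves r was 0.552 for Pck1 and G6pc, 0.574 for Pck1 and Fbp1 and 0.530 for G6pc and Fbp1. After the mean of each of the 28 groups was taken away, it was 0.0071, −0.081 and 0.283.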

How the data were processed

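TempO-Seq probe counts of 71 crypt and 66 villus libraries of the duodenum were analysed. For each of 30146 probes the authors tallied its reads in every library and deposited these counts without normalization. The submitters' processing notes name bcl2fastq 2.17.1.14 and Bowtie, and the genome build of the probes was not given in the sources used here. Groups, exposure times and mouse numbers came from the sample labels, which place 6 crypt libraries at 0.1 ppm and 7 days. The genes and gene lists were chosen with earlier results of these data known. From each list besides gluconeogenesis at most 4 genes with the smallest adjusted p of a villus dose trend were named, as were the 5 genes most correlated with each of the 3 genes.

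CPM and log2 CPM were computed here from the deposited counts with TMM scaling. Counts were fitted with edgeR 4.0.16 in R 4.3.3 (quasi-likelihood, 28 groups, prior count 2, filterByExpr), leaving 26365 probes. P values were two-sided and Benjamini-Hochberg adjusted over all probes in each contrast, and the threshold was 0.1. Alternatives were DESeq2 1.42.0, its size factors, other filters, a dispersion for each probe, separate fits of each compartment and time, summed probes, a depth covariate, thinned counts, concentration in ppm, the mouse as a block and leaving out libraries. Mouse numbers paired crypt and villus libraries of 1 animal. The deviations of 66 such pairs from their group means correlated with a median r of 0.0688, against −0.0174 between different mice. Tests of neighbouring concentrations, tests of the compartments at exposed concentrations, and thinning were added after the data had been seen. On simulated counts for the 90-day villus at 180 ppm, the fit recovered 103 of 200 probes changed 4-fold (19162 probes tested). It recovered 192 of 200 changed 8-fold (19156 probes tested). It also called 15 and 22 unchanged probes. The simulation gave every probe the same spread and no other group differences, and it changed only probes above a minimum expected count. Its recovery therefore need not hold for scarcer probes or for the spread of these data. Intervals cover 95%.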

Additional observations from a re-analysis of the deposited data

Results flagged for a closer look

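In 8 of 84 groups of a gene, compartment, time and concentration, 1 library lay far from the others of its group by Dixon's ratio at the 95% level, and chance gives about 1 in 20 groups. Of Pck1, these were the 976 CPM of mouse 49 in the untreated 7-day crypt, the 50.6 CPM of mouse 366 in the crypt at 20 ppm and 7 days, the 1886 CPM of mouse 208 in the villus at 1.4 ppm and 7 days, and the 471 CPM of mouse 162 in the villus at 1.4 ppm and 90 days, all above their groups. The crypt library of mouse 49 is also the one whose crypt markers were low for its label. Of G6pc, they were the 33.8 CPM of mouse 50 in the untreated 7-day villus and the 6.55 CPM of mouse 526 in the villus at 180 ppm and 7 days, where the other 3 libraries held no count. Of Fbp1, they were the 9.29 CPM of mouse 368 in the villus at 20 ppm and 7 days, below its group, and the 28.3 CPM of mouse 483 in the villus at 180 ppm and 90 days, above it. In the main edgeR fit, which does not pair the compartments of a mouse, none of the 12 differences of dose trends between compartments or times passed. In that fit 1 had an unadjusted p under 0.05. With the mouse as a block, the villus minus crypt difference of Pck1 trends at 90 days passed.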

How the results depend on the processing

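No called difference of the 3 genes changed sign under the alternatives run, leaving out libraries included. Some differences that were not called did, such as G6pc at 20 ppm in the 7-day villus (−1.20 to 0.46 when single libraries were left out), Pck1 at 0.1 ppm in the 7-day crypt (−0.32 to 0.60), and untreated crypt against villus at 7 days for G6pc (−0.60 to 0.58) and Fbp1 (−0.36 to 0.39). The count of lower calls among the 72 comparisons with untreated mice, 30, ranged from 24 to 32 over the alternatives and from 28 to 31 when single libraries were left out, and no comparison was called higher. A dispersion for each probe gave the 24, and the lost calls were 5 of G6pc and 1 of Fbp1. DESeq2 gave no adjusted p in 6 results.

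For untreated Pck1 at 7 days the difference of crypt and villus passed with the mouse as a block (log2 −1.18, adjusted p = 2.16e-05). At 90 days it did not pass with the log10 total count as a covariate (−1.24, adjusted p = 0.16). Leaving out single libraries, it ranged from −1.63 to −0.71 at 7 days, passing without the crypt library of mouse 49 (−1.63, adjusted p = 0.0582). At 90 days it ranged from −1.84 to −1.14, and was lost without the villus library of mouse 5 (−1.14, adjusted p = 0.201). For G6pc at 90 days it did not pass with a dispersion for each probe (−2.14, adjusted p = 0.147). The villus minus crypt difference of Pck1 trends at 90 days passed with the mouse as a block (−0.19, adjusted p = 0.0851), and the 90 minus 7 day difference in the crypt passed in DESeq2 (0.28, adjusted p = 0.0979). With concentration in ppm, the G6pc trend in the 7-day crypt was −0.81 per 100 ppm and did not pass (adjusted p = 0.148). The block changed no other call of those it could be fitted for. The cause of these changes was not tested.

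Single libraries decided several calls near the threshold. G6pc at 180 ppm in the 7-day villus ranged from −4.63 to −1.73 and was lost in 4 of 9 fits. At 180 ppm in the 90-day crypt it ranged from −2.67 to −1.40 and was lost in 5 of 10 fits. At 60 ppm in the 90-day crypt G6pc was lost without untreated replicate 3 (−1.58, adjusted p = 0.156). At 60 ppm in the 7-day crypt G6pc ranged from −2.71 to −2.08 and Fbp1 from −1.5 to −1.07, and both were lost without any of several libraries. Pck1 at 1.4 ppm in the 90-day villus passed in DESeq2 (−2.13, adjusted p = 0.0411) and after thinning (−1.91, adjusted p = 0.0676). It also passed with DESeq2 size factors in edgeR (adjusted p = 0.0728) and with a filter of a mean count of at least 10 (adjusted p = 0.0912). Differences of trends were not refitted without single libraries at 5, 20 or 60 ppm. Depth limits G6pc most: several exposed libraries held no count of it, which means not detected at this depth.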
